A study of Homo sapiens with 17 samples.

Results

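HERV9 is a family of human endogenous retroviruses, and LTR12 is the name of the long terminal repeats (LTRs) that flank its internal part. A provirus has the order LTR, internal part, LTR. The 5′ LTR carries the promoter and the 3′ LTR the signal for polyadenylation, and recombination between the LTRs of a provirus leaves an LTR standing alone. LTR12 copies are known to act as promoters or enhancers of neighbouring genes, among them a form of TP63 in the male germ line, and their CCAAT boxes are known binding sites of the factor NF-Y. ORF1p and ORF2p are the proteins encoded by LINE-1, an unrelated retrotransposon, so that any HERV9 RNA in their immunoprecipitates belongs to another class of element.

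The copies were taken from the deposited table by the names of their subfamilies: those that begin with HERV9, and LTR12 alone or continued by a capital letter or the sign _. Positions are those of the table, on hg38. This gave 5716 loci of 3594049 repeat loci and 10 subfamilies of 1080. The internal parts were HERV9-int (309 loci), HERV9NC-int (219) and HERV9N-int (187). The LTRs were LTR12C (2572), LTR12 (724), LTR12F (508), LTR12_ (501), LTR12D (443), LTR12B (139) and LTR12E (114), where LTR12_ is spelled as in the table. The annotated copies had median lengths of 437 bases for LTR12B to 2599 bases for HERV9NC-int. Their median divergence, the percentage of bases by which a copy departs from the consensus of its subfamily, ran from 6.4% for HERV9NC-int to 13.6% for LTR12E.

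RNA came from N2102Ep, an established human embryonal carcinoma line, and was sequenced in 4 libraries of RNA pulled down with ORF2p (ORF2p RIP), 4 of RNA pulled down with ORF1p (ORF1p RIP), 3 of a mock immunoprecipitation (mock IP) and 6 of total RNA. No genetic change or drug is given in the labels of any group. The labels of ORF2p RIP, mock IP and total RNA samples name N2102Ep clone 2/A6. Those of the ORF1p RIP give an embryonal tissue and no clone, though their descriptions carry the term N2102Ep. The protein pulled down and any difference in the cells, such as the clone, can therefore not be told apart in comparisons with the ORF1p RIP. The mock IP descriptions carry the term mIgG, and those of total RNA name a pair of series, b for replicates 1 and 2 and bl for replicates 3 to 6. Whether replicates were separate cultures is not said, so each p-value measures spread among the libraries alone, and this spread may be technical. Fewer cells with a transcript and less of it per cell cannot be told apart in such bulk samples.

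Estimated counts over all repeats summed to between 9795032 and 17056092 per library in the ORF2p RIP, 7693841 and 9125527 in the ORF1p RIP, 12703395 and 16271143 in the mock IP, and 8937441 and 19670774 in total RNA. The LINE-1 subfamily L1HS, whose RNA encodes the proteins pulled down, was higher in the ORF2p RIP than in the mock IP by 3.22 ± 0.48 (log2, SE; adjusted p = 0.000123) and in the ORF1p RIP by 3.83 ± 0.50 (adjusted p = 8.53e-06). Without ORF1p RIP replicate 3, the library with the most L1HS, the change in the ORF1p RIP was 3.19 ± 0.35 (adjusted p = 3.42e-06). Adjusted p-values are from edgeR's quasi-likelihood test with Benjamini-Hochberg adjustment over 1074 subfamilies or over 126260 loci. Differences are log2 changes with standard errors, and a feature was called at an adjusted p under 0.05 with a change of at least 2-fold. Levels are CPM, counts scaled to a common library size, on the TMM scale, in which library sizes are adjusted so that most features do not differ.

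The windows around annotated gene starts were the only sequence of these copies at hand. RefSeq windows of 250 bases before to 50 after a gene start (GRCh38.p14) overlapped members in 9 of 35116 cases, at 8 loci. A pair of these windows is shown because the first holds the only one of these 8 loci with at least 4 CPM in a group, and the other lies wholly within a HERV9 internal part. The first, ITFG1-AS1, is chr16:47143818-47144117 on the plus strand and overlaps an LTR12C copy at chr16:47143451-47143941 over 124 bases. The other, LOC101927483, is chr14:48201759-48202058 on the plus strand, within a HERV9-int copy at chr14:48199301-48202418. Capitals mark the bases within the annotated copy.
ITFG1-AS1: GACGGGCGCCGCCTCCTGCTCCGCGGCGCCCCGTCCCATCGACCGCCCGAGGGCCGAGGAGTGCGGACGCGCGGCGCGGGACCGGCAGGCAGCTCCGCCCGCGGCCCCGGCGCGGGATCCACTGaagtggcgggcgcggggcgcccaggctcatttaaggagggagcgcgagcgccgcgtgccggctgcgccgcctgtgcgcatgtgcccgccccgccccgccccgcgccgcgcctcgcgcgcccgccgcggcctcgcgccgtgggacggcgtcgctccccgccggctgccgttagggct
LOC101927483: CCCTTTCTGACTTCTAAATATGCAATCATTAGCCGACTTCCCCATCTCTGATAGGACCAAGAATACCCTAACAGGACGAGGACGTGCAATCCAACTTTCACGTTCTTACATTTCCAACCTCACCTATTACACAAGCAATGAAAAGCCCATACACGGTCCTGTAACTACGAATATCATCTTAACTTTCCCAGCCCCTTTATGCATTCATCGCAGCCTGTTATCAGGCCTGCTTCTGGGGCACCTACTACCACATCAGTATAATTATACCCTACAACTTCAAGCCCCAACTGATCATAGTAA
The ITFG1-AS1 window had a G and C content of 82.33%, against a median of 58.67% over all such windows, and its LTR12C copy had a divergence of 21.7%. The box CCAAT was found on neither strand of these windows, and 34.61% of all 35116 windows held it. Of the other windows that overlapped members, that of LOC105370743 held 1 CCAAT, inside its LTR12F copy. That of LOC105377039 held 2, outside its LTR12E copy. The motif AGATAA, bound by factors of the GATA family, was likewise not found on either strand of the pair shown, and 10.33% of all windows held it. The LOC124902967 window held 1, outside its LTR12C copy. The letters of member loci outside the 9 windows were not used here.

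The LTR12C copy at the starts of ITFG1-AS1 and NETO2 was higher in the ORF1p RIP than in both the mock IP and total RNA. It lies within the span of NETO2, which encodes an auxiliary subunit of kainate receptors, on the opposite strand. The window at the NETO2 start, chr16:47143896-47144195 on the minus strand, overlaps this copy over 46 bases. As the strand setting of the counts is not given, reads of this copy and reads from the start of NETO2 RNA cannot be told apart. The copy lies after the NETO2 start and before the ITFG1-AS1 start. It had 4.36, 2.58, 0.942 and 2.28 CPM in the ORF2p RIP, 7.26, 5.59, 8.37 and 4.10 CPM in the ORF1p RIP, and 1.59, 0.486 and 0.376 CPM in the mock IP. The lowest, median and highest total RNA libraries had 0.693, 1.12 and 1.99 CPM. Every ORF1p RIP library lay above every mock IP and total RNA library, with changes of 2.92 ± 0.56 over the mock IP (adjusted p = 0.000102) and 2.35 ± 0.42 over total RNA (adjusted p = 3.37e-05). The ORF2p RIP was lower than the ORF1p RIP by a log2 change of -1.32 ± 0.47 (adjusted p = 0.0167), a call lost without ORF2p RIP replicate 3 (adjusted p = 0.0557). The copy at LOC101927483, chosen after its values were seen, ran the other way. It had 1.09, 1.48, 3.25 and 1.33 CPM in the ORF2p RIP, 0, 0.0621, 0 and 0.456 CPM in the ORF1p RIP, and 4.12, 2.19 and 2.63 CPM in the mock IP, with 0.307, 0.720 and 2.26 CPM in the lowest, median and highest total RNA libraries. The ORF1p RIP fell below the mock IP by a log2 change of -4.51 ± 0.90 (adjusted p = 0.000161), with no overlap, and the ORF2p RIP was not called against the mock IP (-0.75 ± 0.67, adjusted p = 0.420).

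As a whole, HERV9 and LTR12 took a small share of repeat reads in every group. The share was 0.147% ± 0.0227 in the ORF2p RIP, 0.157% ± 0.034 in the ORF1p RIP, 0.191% ± 0.0158 in the mock IP and 0.152% ± 0.0606 in total RNA (SD; n = 4, 4, 3 and 6, as for all group values that follow). Total RNA libraries fell on both sides of the rest, with shares of 0.103% to 0.234%. By level, all members summed to 1907 CPM in series b and 1040 CPM in series bl, with LTR12C 2.27-fold and LTR12_ 0.930-fold in series b relative to series bl. Results against total RNA are therefore also given within each series where that changes the call. Of single loci, only those named by their change in a comparison with total RNA were checked in this way.

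LTR12C, with the most copies, held the most reads, but per kilobase of annotated sequence it was not the highest. In the ORF1p RIP the level per kilobase was highest for LTR12F (0.372 CPM per kb) and LTR12 (0.365), against 0.228 for LTR12C, 0.114 for LTR12D and 0.0464 for HERV9N-int. In the mock IP LTR12D (0.406 CPM per kb) was at the level of LTR12 (0.383) and LTR12F (0.382), and LTR12C had 0.288. LTR12B had the lowest level per kilobase among LTRs in all 4 groups, with 0.0607 to 0.10 CPM per kb, and its annotation includes a single entry of 112802 bases.

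**Figure D1:**
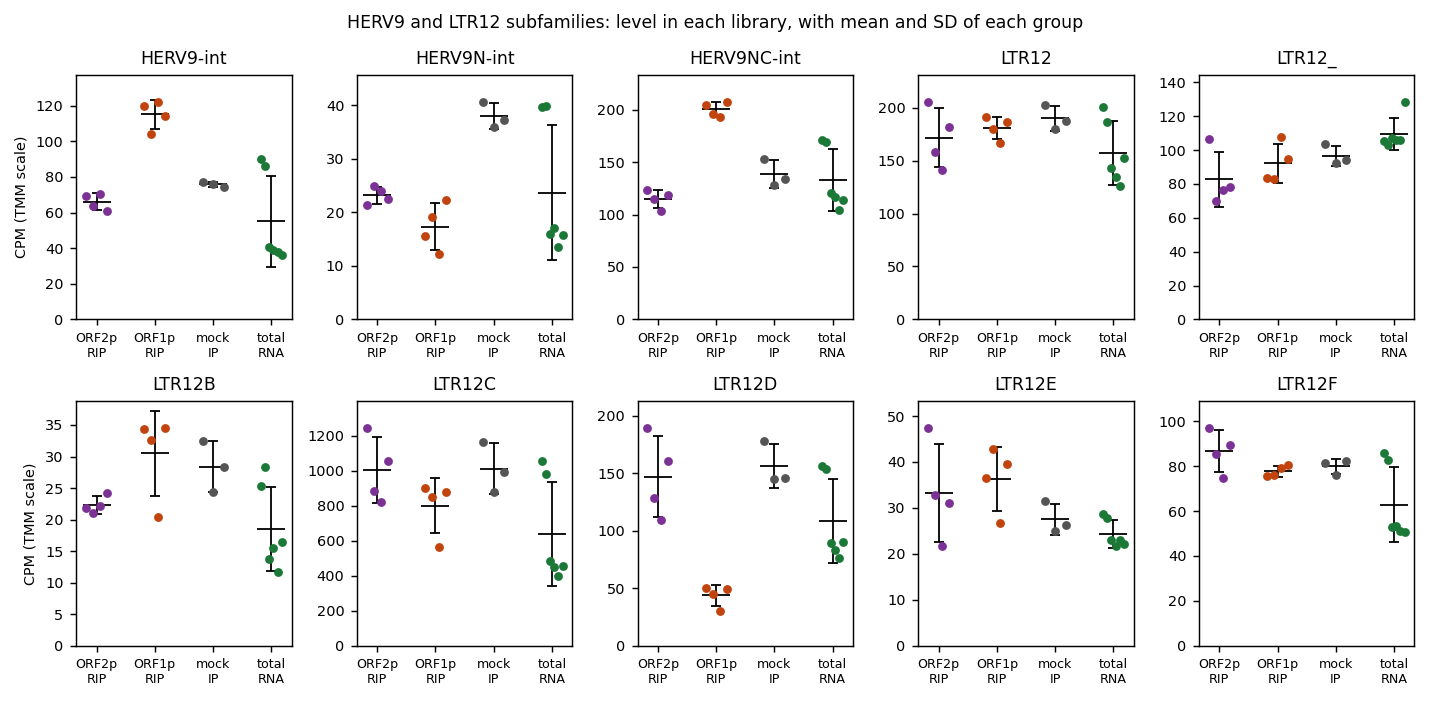
Level of each HERV9 and LTR12 subfamily in every library (points) with the mean and SD of each group (bars), in CPM on the TMM scale with each axis starting at 0. LTR12D sits lowest in the ORF1p RIP and HERV9-int and HERV9NC-int sit highest there, and the 2 leftmost total RNA points, of series b, lie above the 4 of series bl for all subfamilies but LTR12_.

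LTR12D had the largest change of the 10 subfamilies in the ORF1p RIP over the mock IP, and it fell. It had 189, 129, 109 and 161 CPM in the ORF2p RIP, 50.1, 45.4, 30.6 and 49.7 CPM in the ORF1p RIP, 178, 145 and 146 CPM in the mock IP, and 76.6, 89.7 and 157 CPM in the lowest, median and highest total RNA libraries. Every ORF1p RIP library lay below every library of the other groups. Its mean was 44.0 ± 9.16 CPM in the ORF1p RIP and 156 ± 19.0 CPM in the mock IP, a change of -1.83 ± 0.27 (adjusted p = 2.92e-05). The ORF2p RIP, at 147 ± 35.4 CPM, was higher than the ORF1p RIP by 1.74 ± 0.25 (adjusted p = 2.39e-05). It overlapped the mock IP, with a change of -0.09 ± 0.26 (adjusted p = 0.822). Against total RNA the ORF1p RIP changed by -1.30 ± 0.24 (adjusted p = 0.000188), which became -0.91 without the LTR12D locus with the most reads and -0.95 with series bl alone.

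The internal parts did not move as one. HERV9NC-int had 115 ± 8.47 CPM in the ORF2p RIP, 200.2 ± 7.03 CPM in the ORF1p RIP, 138 ± 13.2 CPM in the mock IP and 133 ± 29.6 CPM in total RNA. It passed the p threshold below 2-fold in the ORF1p RIP over the mock IP (0.53 ± 0.15, adjusted p = 0.00843) and in the ORF2p RIP over the ORF1p RIP (-0.80 ± 0.14, adjusted p = 0.000173). HERV9-int had 66.1 ± 4.63 CPM in the ORF2p RIP, 115 ± 8.15 CPM in the ORF1p RIP, 75.9 ± 1.50 CPM in the mock IP and 55.0 ± 25.7 CPM in total RNA. Of the 6 comparisons it was called in the ORF1p RIP over total RNA alone (1.06 ± 0.24, adjusted p = 0.00117). That change was 0.32 with series b alone, 0.91 with the replicate number as a block, and 0.94 to 0.98, below the 2-fold threshold, without any one of total RNA replicates 3 to 6. A few copies weighed heavily in the ORF1p RIP. HERV9NC-int at chr11:67620426-67625693 and chr1:62754825-62760515 had 58.4 and 49.7 CPM there, against 1.96 and 0.942 CPM in the mock IP. HERV9-int at chr5:139510235-139511266 had 32.6 CPM against 0.108 CPM. Of single loci tested, 9 of 25 HERV9NC-int loci were higher in the ORF1p RIP and 12 lower. For HERV9-int 4 of 13 were higher and 8 lower. Over all loci 33% were higher and 33.2% lower. The sum of HERV9N-int ran opposite to both. It had 23.2 ± 1.58 CPM in the ORF2p RIP, 17.3 ± 4.40 CPM in the ORF1p RIP, 38.0 ± 2.40 CPM in the mock IP and 23.7 ± 12.6 CPM in total RNA. Its change in the ORF1p RIP over the mock IP was -1.12 ± 0.35 (adjusted p = 0.0127). It was -0.83 without the locus with the most reads and -0.996 without ORF1p RIP replicate 3, both below the 2-fold threshold.

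Over the 10 subfamilies, 0 were called higher and 2 lower in the ORF1p RIP against the mock IP, where 7.36% of all subfamilies were called higher and 8.75% lower (16.1% in all). In the ORF2p RIP against the mock IP 0 were called, with a background of 6.7% higher and 1.49% lower (8.19%). By edgeR 0 of the 10 had an unadjusted p under 0.05 there, and by DESeq2 1 did, with 0 called. In the ORF2p RIP against the ORF1p RIP 1 was called, LTR12D, higher, with a background of 12.4% higher and 6.52% lower (18.9%). In the ORF1p RIP against total RNA 1 was higher and 1 lower, with a background of 9.12% and 8.29% (17.4%); with series b alone these were LTR12D and HERV9N-int (-1.24), both lower, and with series bl alone HERV9-int and LTR12B (1.09), both higher. Against total RNA the ORF2p RIP had 0 called (background 5.12% higher and 1.3% lower, 6.42% in all; 4 at an unadjusted p under 0.05 by edgeR and by DESeq2, and 0 called by DESeq2) and the mock IP had 0 called (background 0.745% higher and 0% lower; 5 by each tool, and 0 called by DESeq2). The median change in the ORF1p RIP over the mock IP was -0.05 over the 10 subfamilies and 0.02 over all subfamilies. Among other endogenous retroviruses, HERVH-int changed by -2.09 and HERVK-int by 1.19 in that comparison, both called, while HERV17-int (-0.49) and LTR17 (-0.31) were not.

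None of the other 6 LTR subfamilies passed the p threshold in the sum of their reads in the ORF1p RIP over the mock IP. LTR12C had 1001 ± 188 CPM in the ORF2p RIP, 798 ± 157 CPM in the ORF1p RIP and 1011 ± 144 CPM in the mock IP, and its change in the ORF1p RIP over the mock IP was -0.34 ± 0.31 (adjusted p = 0.380). LTR12 changed by -0.07 ± 0.15 in that comparison, LTR12F by -0.04 ± 0.18 and LTR12_ by -0.07 ± 0.13. LTR12B changed by 0.11 ± 0.26 and LTR12E by 0.41 ± 0.21. A missed threshold does not show that the levels were equal. Beneath these sums, single copies moved far in both directions.

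Of the 5716 loci, 709 (12.4%, against 17.5% of all repeat loci) had no read in any library, and 282 passed the filter for tests of single loci. A locus that passed through a group in which it is high had to differ, so the counts that follow describe those 282 and not the family. In the ORF1p RIP against the mock IP 64 were higher and 136 lower, 70.9% of the 282, against 66.2% of all loci tested (33% higher and 33.2% lower). In the ORF2p RIP against the mock IP 30 were higher and 45 lower, 26.6% against 31.8% of all loci (18.6% higher and 13.2% lower). With libraries scaled to their totals that split became 22 higher and 69 lower. In the ORF2p RIP against the ORF1p RIP 120 were higher and 83 lower, 72% against 68.1% (36.9% higher and 31.2% lower). Against total RNA the ORF1p RIP had 84 higher and 117 lower, 71.3% against 70.3% of all loci (35.2% higher and 35.1% lower). The ORF2p RIP had 56 higher and 27 lower, 29.4% against 43.3% of all loci (23% higher and 20.3% lower), which became 41 higher and 55 lower with library totals, 35 and 59 with series b alone, and 98 and 19 with series bl alone. The mock IP had 11 higher and 1 lower than total RNA, 4.26% against 5.08% of all loci (3.94% higher and 1.14% lower), and 0 or 127 calls with series b or series bl alone.

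The shares called in both directions together thus lay near those of all repeats in each comparison with the ORF1p RIP. The split by direction did not in the ORF1p RIP over the mock IP. There 64 members were higher and 136 lower, whereas all loci divided into 33% and 33.2%. Other ERV1 loci had 1396 higher and 5462 lower of 8803. The median change of the members also differed from that of all loci. It was -1.19 in the ORF1p RIP over the mock IP for the 282 member loci, 0.14 for all 126260 loci and -2.54 for 8803 other loci of the ERV1 class, to which HERV9 belongs. In the ORF2p RIP over the mock IP the medians were -0.52 for the members, -0.10 for all loci and -0.91 for other ERV1 loci. LTR12D had 0 higher and 12 lower of 14 loci tested in the ORF1p RIP over the mock IP, LTR12E 2 higher and 0 lower of 8, and LTR12C 32 higher and 71 lower of 151.

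**Figure D2:**
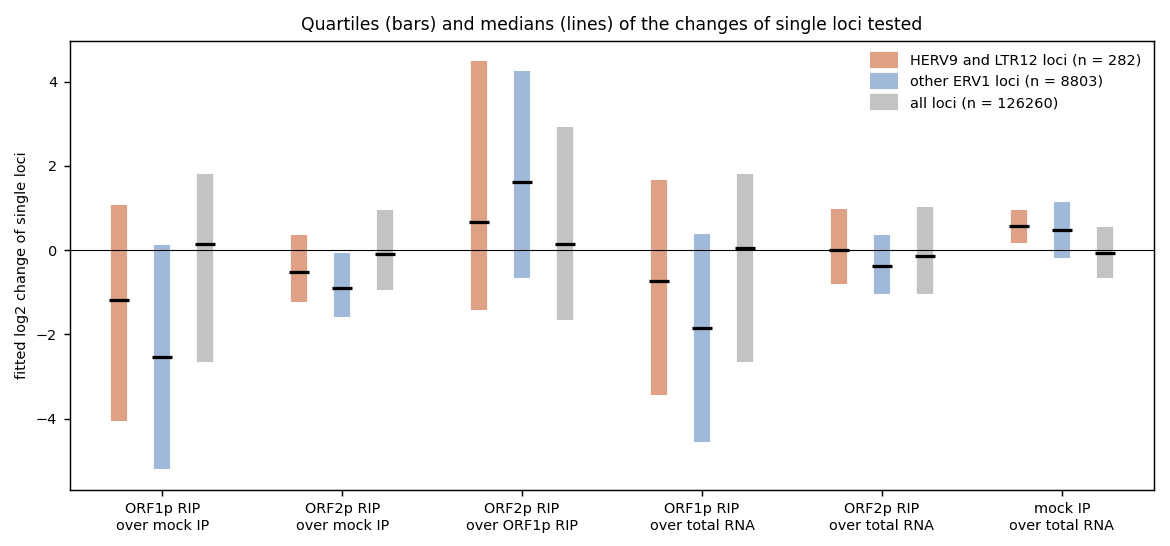
Quartiles (coloured bars) and medians (black lines) of the fitted log2 changes of single loci in the 6 comparisons, for the 282 HERV9 and LTR12 loci tested, the 8803 other ERV1 loci and all 126260 loci. In the ORF1p RIP over the mock IP the median is -1.19 for HERV9 and LTR12, between -2.54 for other ERV1 loci and 0.14 for all loci.

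Of the 20 member loci with the highest levels in each group, the ORF2p RIP and the ORF1p RIP shared 0, the ORF1p RIP and the mock IP 0, and the ORF1p RIP and total RNA 2. The ORF2p RIP and the mock IP shared 11, the ORF2p RIP and total RNA 9, and the mock IP and total RNA 14. Among loci with at least 30 reads in all libraries together, lists of the same proportion of other ERV1 loci, 489 each, shared 28.2% between the ORF2p RIP and the ORF1p RIP, 27.6% between the ORF1p RIP and the mock IP, and 81.6% between the mock IP and total RNA. For all loci those shares were 36.3%, 25% and 70.1%. The ORF1p RIP and total RNA shared 10% of member loci, 26.4% of other ERV1 loci and 26.4% of all loci. The ORF2p RIP and the mock IP shared 55%, 74.4% and 48.3% in the same order. Between the ORF2p RIP and total RNA 45%, 74% and 48.2% were shared. Across the 282 loci, Pearson's r of log2(CPM + 0.1) was -0.38 between the ORF2p RIP and the ORF1p RIP, -0.25 between the ORF1p RIP and the mock IP, and 0.92 between the mock IP and total RNA. These values describe loci, which are not replicates, within libraries of different depth. A locus could pass the filter through a high level in 1 group alone, which by itself can lower r. Pearson's r was not computed for other repeats, so no trait of these copies is read from it.

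The reads were also summed over proviral runs, stretches in which annotated internal parts and LTR12 copies of the same strand follow each other within 50 bases. There were 406 runs with an internal part and an LTR. Their levels summed to 294 CPM in the ORF2p RIP, 586 CPM in the ORF1p RIP, 360.3 CPM in the mock IP and 289 CPM in total RNA. The 5 runs highest in the ORF1p RIP held 404 CPM of its sum. The other 401 runs summed to 291 CPM in the ORF2p RIP, 183 CPM in the ORF1p RIP, 351 CPM in the mock IP and 285 CPM in total RNA. The 5 were picked by their level in the ORF1p RIP, which lowers the remainder of that group by selection. The remainders can therefore not be compared between groups. Runs of at least 4 CPM numbered 15 in the ORF2p RIP, 19 in the ORF1p RIP, 22 in the mock IP and 15 in total RNA. Of all member reads, internal parts held 11.9% ± 1.57 in the ORF2p RIP, 21.1% ± 2.44 in the ORF1p RIP, 13.7% ± 0.668 in the mock IP and 15.99% ± 0.548 in total RNA. LTRs next to an internal part held 5.68% in the ORF2p RIP and 16.4% in the ORF1p RIP, against 6.59% in the mock IP and 6.40% in total RNA. The 5 runs above, with most of the run sum in the ORF1p RIP, enter both of these shares. Shares without them were not computed. LTR12 copies that stand alone held 82.4% in the ORF2p RIP, 62.5% in the ORF1p RIP, 79.7% in the mock IP and 77.6% in total RNA.

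The highest run was an LTR12C provirus with a HERV9NC-int internal part at chr11:67618853-67627042. It had 2.69, 1.43, 1.01 and 4.09 CPM in the ORF2p RIP, 150.2, 129.5, 114 and 150.0 CPM in the ORF1p RIP, and 7.21, 2.91 and 3.94 CPM in the mock IP. The lowest, median and highest total RNA libraries had 1.38, 2.16 and 3.18 CPM. Every ORF1p RIP library was more than an order of magnitude above every other library. Its internal part at chr11:67620426-67625693, of 3.7% divergence, changed by 4.87 ± 0.54 in the ORF1p RIP over the mock IP (adjusted p = 9.71e-08) and by -6.14 ± 0.52 in the ORF2p RIP over the ORF1p RIP (adjusted p = 1.86e-09). In the ORF2p RIP over the mock IP it changed by -1.27 ± 0.49 (adjusted p = 0.0527), and by -1.55 with library totals (adjusted p = 0.0160).

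An LTR12 provirus with HERV9-int at chr5:139502943-139511376 was almost unread outside the ORF1p RIP. It had 0, 0.246, 0 and 0.140 CPM in the ORF2p RIP, 95.2, 82.5, 119.5 and 73.5 CPM in the ORF1p RIP, and 0.640, 0.182 and 0.530 CPM in the mock IP. Its total RNA libraries had 0, 0.0544 and 0.307 CPM at the lowest, median and highest. Its 5′ LTR at chr5:139502943-139503773 had 0 reads in the ORF2p RIP, so that the ORF2p RIP was at least 438-fold lower than the ORF1p RIP, against a floor of 3 reads over the group. The same LTR changed by 8.07 ± 0.63 in the ORF1p RIP over the mock IP (adjusted p = 2.97e-09). With 2 reads over all total RNA libraries, its ratio of the ORF1p RIP over total RNA was 1699, with a 95% interval of 470.4 to 14032 that covers counting error of those reads only. The internal stretch at chr5:139510235-139511266 also had 0 reads in the ORF2p RIP, at least 452-fold lower than the ORF1p RIP by the same floor.

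Another LTR12C provirus with HERV9NC-int, at chr1:62753257-62762661, was chosen after its values were seen. It had 0, 1.06, 1.82 and 0.0850 CPM in the ORF2p RIP, 122, 116, 136 and 119 CPM in the ORF1p RIP, and 1.83, 1.01 and 1.93 CPM in the mock IP. Its 5′ LTR at chr1:62753257-62754824 changed by 6.71 ± 0.59 in the ORF1p RIP over the mock IP (adjusted p = 4.15e-09). Further runs, likewise chosen after their values were seen, were at chr6:150849127-150856692, with 0.284 CPM in the ORF2p RIP and 27.6 ± 2.22 CPM in the ORF1p RIP against 1.68 CPM in the mock IP, and at chr3:33446462-33454987, with 0.0293, 24.1 ± 5.87 and 0.492 CPM in the same groups. All 5 of these runs lay on the plus strand.

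These 5 runs, chosen by their level in the ORF1p RIP, each overlap a RefSeq long noncoding RNA (LOC124902696, LOC124904194, LOC124901083, LOC124901431 and LOC124909363) whose span has its lower end inside the first LTR12 of the run. Of 281 runs that open with an LTR12, 21 (7.473%) had the end of a gene span in that LTR. Of the other 16 with such an end, 12 were below 2 CPM in the ORF1p RIP, and the highest, which overlaps LINC02972 on chromosome 12, had 28.0 CPM in the ORF2p RIP and 11.7 CPM in the ORF1p RIP against 36.7 CPM in the mock IP. The table of gene spans used here gives no strand, so whether those ends are starts was not tested.

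**Figure D3:**
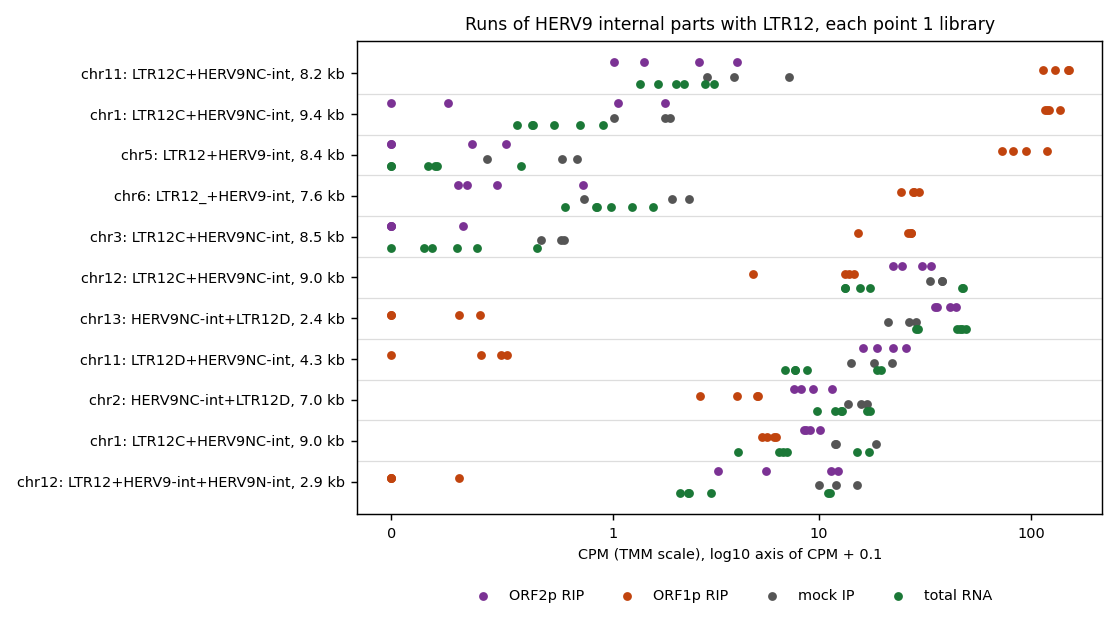
Summed level of the leading HERV9 runs in each library, on a log10 axis of CPM + 0.1, with 1 row per run named by chromosome, parts and length. The upper 5 runs have all ORF1p RIP libraries to the right of all others, and the runs on chr13, chr11 (LTR12D) and the lowest on chr12 have them near 0.

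Repeats around a run did not always follow it. Within 50 kb of the chromosome 11 provirus at 67618853, repeats that are not members summed to 10.3 CPM in the ORF2p RIP, 10.3 CPM in the ORF1p RIP, 12.9 CPM in the mock IP and 4.23 CPM in total RNA, while the run itself had 136 CPM in the ORF1p RIP. Around the chromosome 5 provirus they summed to 2.92 CPM in the ORF2p RIP and 13.5 CPM in the ORF1p RIP, against 2.71 CPM in the mock IP and 3.41 CPM in total RNA. Around the chromosome 1 provirus they had 10.7 CPM in the ORF2p RIP and 92.4 CPM in the ORF1p RIP, against 23.1 CPM in the mock IP and 29.7 CPM in total RNA.

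The copies on chromosomes 21 and 13 described next had under 1 CPM in every ORF1p RIP library and lay among repeats that were also low there. The LTR12D copy with the most reads, at chr21:27884453-27885703 outside any gene span, had 47.6, 38.3, 29.1 and 32.3 CPM in the ORF2p RIP, 0.961, 0, 0 and 0.114 CPM in the ORF1p RIP, and 50.5, 44.6 and 44.7 CPM in the mock IP. Its total RNA libraries had 21.8, 27.2 and 37.9 CPM at the lowest, median and highest. Every ORF1p RIP library was below 1 CPM, with a change of -7.25 ± 0.63 over the mock IP (adjusted p = 3.50e-09). This copy held 25.3% of LTR12D reads. Other repeats within 50 kb summed to 1183 CPM in the ORF2p RIP and 5.38 CPM in the ORF1p RIP, against 1162 CPM in the mock IP and 1439.7 CPM in total RNA.

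The run of HERV9NC-int with LTR12D at chr13:54316377-54318739 had 36.2, 41.8, 35.3 and 44.5 CPM in the ORF2p RIP, 0.107, 0, 0.161 and 0 CPM in the ORF1p RIP, and 28.9, 26.8 and 21.2 CPM in the mock IP. Its total RNA libraries had 28.8, 45.8 and 49.5 CPM at the lowest, median and highest. The LTR12D part at chr13:54317713-54318739 had 0 reads in the ORF1p RIP, which was at least 125-fold lower than the mock IP and at least 103-fold lower than total RNA, while the ORF2p RIP was at least 172-fold higher than the ORF1p RIP, by the same floor of 3 reads over the group. Other repeats within 50 kb summed to 961 CPM in the ORF2p RIP and 63.1 CPM in the ORF1p RIP, against 845 CPM in the mock IP and 908 CPM in total RNA.

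More copies were low in the ORF1p RIP. The LTR12C copy at chr5:12661735-12663059 in the noncoding gene LINC01194 changed by -6.39 ± 0.62 in the ORF1p RIP over the mock IP (adjusted p = 1.65e-08). The LTR12C copy at chr8:79376387-79377790 changed by -6.95 ± 0.76 (adjusted p = 8.20e-08), and the LTR12 copy at chr9:90427761-90428302 in LINC01508 by -7.44 ± 0.60 (adjusted p = 1.33e-09). HERV9-int at chr17:52573719-52579464, HERV9N-int at chr12:29169953-29171035 in FAR2, a fatty acyl-CoA reductase gene, and LTR12D at chr1:215393982-215394963 had 0 reads in the ORF1p RIP, at least 81.2-fold, 82.5-fold and 59.1-fold lower than the mock IP. HERV9NC-int at chr12:8788669-8793938 was lower without being absent, with 19.4 ± 4.30 CPM in the ORF2p RIP and 4.19 ± 1.93 CPM in the ORF1p RIP against 23.2 ± 1.53 CPM in the mock IP (ORF1p RIP over mock IP -2.45 ± 0.50, adjusted p = 0.000201).

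Near absence went both ways. Of 70 member loci with at least 4 CPM in the ORF1p RIP, 16 (22.9%) were below 0.2 CPM in total RNA, against 6.12% of all such loci and 4.88% of other ERV1 loci. In the other direction, 27 of 79 loci (34.2%) with at least 4 CPM in the mock IP were below 0.2 CPM in the ORF1p RIP, against 25.1% of all such loci and 18.3% of other ERV1 loci. Of 50 loci with at least 4 CPM in total RNA, 15 (30%) were below 0.2 CPM in the ORF1p RIP, against 26.77% of all such loci and 18.55% of other ERV1 loci, and 0 of the 50 were below it in the ORF2p RIP or in the mock IP. Most of the 16 loci near absent in total RNA are pieces of the runs on chromosomes 1, 3, 5, 6 and 11 described above. Loci of the other lists also share runs. Such loci are not independent, so no test was made.

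Other copies were highest in the ORF2p RIP. An LTR12C copy at chr12:32472107-32473651 in FGD4, the gene of an exchange factor for the GTPase CDC42, was the highest member by the mean of the 4 groups and has the strand of that gene. It had 101, 77.1, 76.7 and 68.9 CPM in the ORF2p RIP, 4.30, 4.88, 2.43 and 2.88 CPM in the ORF1p RIP, and 45.9, 33.0 and 35.4 CPM in the mock IP. The lowest, median and highest total RNA libraries had 8.56, 9.88 and 37.8 CPM. The ORF2p RIP libraries lay above all others. The changes were 4.48 ± 0.53 over the ORF1p RIP (adjusted p = 1.95e-07) and 2.11 ± 0.41 over total RNA (adjusted p = 0.000252). Total RNA had 37.1 and 37.8 CPM in series b and 8.56 to 10.4 CPM in series bl. The change over total RNA was not checked within each series. Over the mock IP the change was 1.09 ± 0.50 (adjusted p = 0.101). A copy of LTR12C at chr12:122591841-122593220 in KNTC1, a kinetochore gene, had 84.1, 49.1, 31.6 and 57.6 CPM in the ORF2p RIP and 26.4, 18.4 and 19.5 CPM in the mock IP (1.37 ± 0.44, adjusted p = 0.0204). That call was lost with library totals (1.07, adjusted p = 0.0603) and without mock IP replicate 2, mock IP replicate 3 or ORF2p RIP replicate 1 (adjusted p = 0.0827, 0.0761 and 0.0728).

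**Figure D4:**
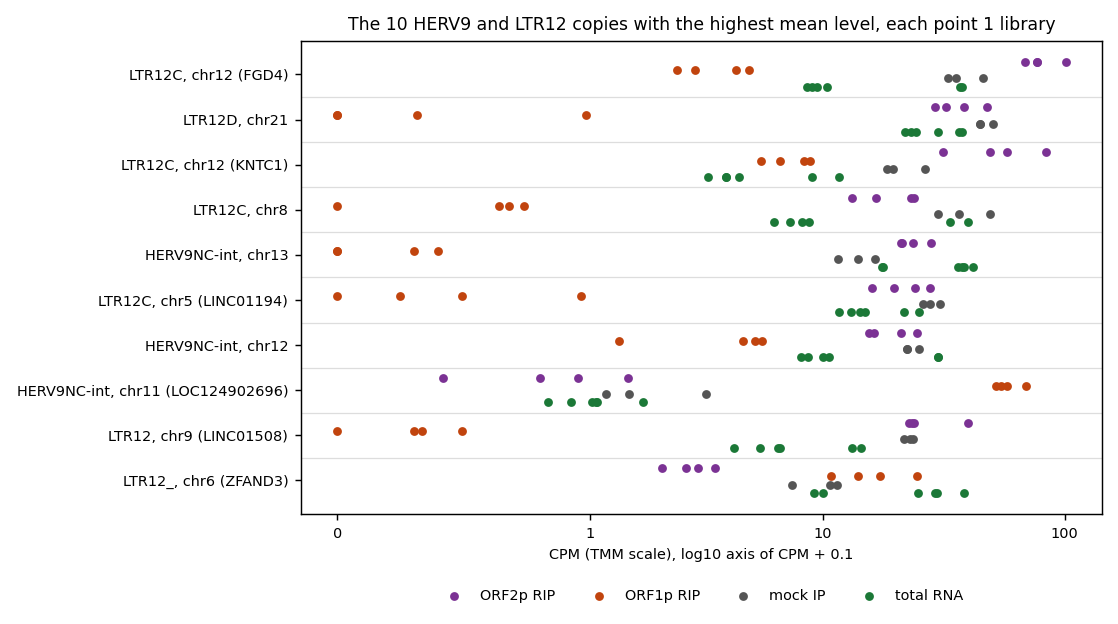
Level of the 10 HERV9 and LTR12 copies with the highest mean over the 4 groups, in each library, on a log10 axis of CPM + 0.1, with the gene in brackets where a copy lies in 1 gene span. For 7 of the 10, the copy in FGD4 among them, the ORF1p RIP is lowest with no overlap of any other group, against 72.2% of 1545 other ERV1 loci and 39.3% of 7073 loci of all kinds with as high a mean, while HERV9NC-int on chr11 is highest in the ORF1p RIP, and the copies in FGD4 and KNTC1 are highest in the ORF2p RIP.

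A few LTRs outside gene spans were read mainly in the ORF2p RIP. The LTR12C copy at chr5:23951095-23952511 had 36.6, 10.8, 11.8 and 27.7 CPM in the ORF2p RIP, 0.107, 0, 0 and 0.229 CPM in the ORF1p RIP, and 1.20, 1.47 and 0.932 CPM in the mock IP. It rose by 4.17 ± 0.58 in the ORF2p RIP over the mock IP (adjusted p = 1.36e-05) and by 4.64 ± 0.44 over total RNA (adjusted p = 3.31e-08). The LTR12 copy at chr1:98500865-98501511 had 5.42 to 10.2 CPM in the ORF2p RIP against 0 to 0.386 CPM in the mock IP (5.78 ± 0.86, adjusted p = 3.06e-05). The LTR12C copy at chr6:92723325-92725006 had 7.01, 3.75, 5.44 and 6.40 CPM in the ORF2p RIP against 0.437, 0.123 and 0.304 CPM in the mock IP (4.28 ± 0.61, adjusted p = 2.07e-05). In all 3 the ORF2p RIP libraries did not overlap those of any other group. These copies were named by a large change without overlap against the mock IP or total RNA. Lack of overlap in the comparison that named a copy was thus fixed by its choice, and it was not counted for other loci.

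Copies inside genes could also be lower in the ORF2p RIP. The LTR12B copy at chr2:85155146-85155518 in TCF7L1, a transcription factor gene of the Wnt pathway, had 2.03, 0.379, 1.37 and 0.625 CPM in the ORF2p RIP against 5.42, 7.18 and 9.30 CPM in the mock IP (-2.74 ± 0.58, adjusted p = 0.000941). The LTR12_ copy at chr7:23406352-23406953 in IGF2BP3, the gene of an RNA-binding protein, changed by -2.04 ± 0.58 in the same comparison (adjusted p = 0.00927). The LTR12_ copy at chr6:37962487-37963192 in ZFAND3 had 2.81 ± 0.603 CPM in the ORF2p RIP, 16.6 ± 5.85 CPM in the ORF1p RIP, 9.83 ± 2.14 CPM in the mock IP and 23.5 ± 11.7 CPM in total RNA, and changed by -1.81 ± 0.45 in the ORF2p RIP over the mock IP (adjusted p = 0.00388). Reads of a copy within a gene span and reads of that gene's unspliced RNA cannot be told apart in this table.

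Gene spans were counted by call for member loci only, with no test made. The same shares were not computed for other repeats. A split common to all repeats and one particular to these copies can therefore not be told apart. Among loci called in the ORF2p RIP against the mock IP, 36.7% of the 30 higher and 82.2% of the 45 lower lay in a gene span, beside 68.1% of the 207 not called. Among those called in the ORF1p RIP against the mock IP, 73.4% of the 64 higher and 58.1% of the 136 lower did, beside 76.8% of the 82 not called. By reads, copies outside gene spans held 44.5% ± 0.444 of member reads in the ORF2p RIP, 27.2% ± 0.396 in the ORF1p RIP, 38.7% ± 0.532 in the mock IP and 38.0% ± 1.12 in total RNA. The libraries of each RIP did not overlap those of any other group in this share. Divergence was weakly related to the change. Spearman's rho of the change with divergence across the 282 loci was -0.15 in the ORF1p RIP over the mock IP and 0.20 in the ORF2p RIP over the mock IP, given as a description across loci.

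Few member loci were called between the mock IP and total RNA. The LTR12_ copy at chr1:244681859-244682404 in DESI2 was the 1 locus lower in the mock IP, with 4.14 ± 0.993 CPM in the mock IP against 8.69, 16.4 and 24.6 CPM in the lowest, median and highest total RNA libraries (-1.93 ± 0.42, adjusted p = 0.0114). The LTR12C copies at chr16:16103820-16105191 in ABCC1, a gene of a drug transporter, and at chr2:88502993-88504403 changed by 2.06 ± 0.50 (adjusted p = 0.0219) and 1.96 ± 0.46 (adjusted p = 0.0180) in the mock IP over total RNA. None of these 3 calls held with series b as the only total RNA (adjusted p = 0.135, 0.206 and 0.254) or without mock IP replicate 1 (adjusted p = 0.0662, 0.119 and 0.143).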

How the data were processed

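The authors deposited a table of estimated counts (expected counts, unscaled) per repeat locus, a unit read from the values, of which 68.6% to 86.2% above 0 were whole in each library within a tolerance of 1e-06. Alignment used STAR and hg38, per the submitters' processing notes. Neither the counting program, nor its strand setting, nor its handling of reads that match several copies is stated in these notes or labels (not given in the sources used here). Values of near-identical copies are therefore uncertain. Of 60 value columns, 43 matched no labelled sample and were not used.

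Counts were summed by subfamily or kept by locus and rounded. Features were kept by filterByExpr (min.count 10 for subfamilies, 30 for loci), scaled by TMM and tested in edgeR 4.0.16 (R 4.3.3) by the quasi-likelihood test, with 1 term for group over the 17 libraries. Locus tests took library sizes and scaling factors from the fit of subfamilies. The standard error is the fitted change over the square root of F. Alternatives were DESeq2 1.42.0, library totals, other filters, a replicate block, each series of total RNA, comparisons fitted on their 2 groups alone, subfamilies without their leading locus, and each library left out. The model was tested on simulated data.

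Named loci were the 10 with the highest mean of the group means, in each comparison the 2 higher and 2 lower with the largest change among called loci of at least 4 CPM and no overlap, and those of at least 4 CPM at a RefSeq gene start. Members, lists and rules were chosen with earlier results of these data known. Gene spans and promoter windows are RefSeq's (GRCh38.p14).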

Additional observations from a re-analysis of the deposited data

Results flagged for a closer look

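A library at the end of its group and far from the others, by Dixon's test, was found in 8 of the groups checked (33 of subfamilies and shares, 55 of single loci at 1 CPM or more). Chance alone marks about 1 in 20. ORF1p RIP replicate 3 accounted for 5 of them. It had 565 CPM of LTR12C and 20.5 CPM of LTR12B, both the lowest of its group, and 24.7% of member reads in internal parts, the highest. It also had 2.58 CPM at the LTR12C copy at chr2:88502993-88504403, the lowest, and 38.7 CPM at HERV9-int at chr5:139503787-139510234, the highest. ORF2p RIP replicate 1 had 2.83 CPM at the LTR12_ copy in IGF2BP3 and 39.8 CPM at the LTR12 copy in LINC01508, both the highest of its group. Total RNA replicate 6 had 129 CPM of LTR12_, the highest of its group.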

How the results depend on the processing

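Signs were compared for the HERV9 and LTR12 subfamilies and for some of the tests of named loci. Among these, no called value changed sign under any alternative. The signs of all other calls, which include most called loci, were not compared. Counts of called subfamilies moved as follows. Without the leading locus of each subfamily they were 1 in the ORF1p RIP over the mock IP, 1 in the ORF2p RIP over the mock IP (LTR12B, -1.11), 2 in the ORF2p RIP over the ORF1p RIP and 1 in the ORF1p RIP over total RNA. With library totals they were 1 in the ORF2p RIP over the mock IP (HERV9N-int, -1.02), 3 in the ORF2p RIP over the ORF1p RIP (HERV9-int and HERV9NC-int both at -1.02 beside LTR12D) and 1 in the ORF1p RIP over total RNA. This scaling shifts the median of all subfamilies to -0.34, -0.25 and -0.20 in those comparisons and to -0.47 in the ORF2p RIP over total RNA. With series bl alone 1 was called in the ORF2p RIP over total RNA (LTR12C, 1.15) and 3 in the mock IP over total RNA. With series b alone some uncalled changes against total RNA turned sign, among them LTR12C in the mock IP over total RNA (-0.03 against 0.67). Called loci at a min.count of 100, where only 80 members were tested, were 65 and 29 in the ORF1p RIP and ORF2p RIP over the mock IP, 69 in the ORF2p RIP over the ORF1p RIP, and 66, 26 and 7 in the ORF1p RIP, ORF2p RIP and mock IP over total RNA. In the mock IP over total RNA they were 23 by DESeq2, 0 with series b and 127 with series bl. Leaving out each replicate in turn gave 1 to 2 subfamilies and 178 to 203 loci in the ORF1p RIP over the mock IP, 0 and 51 to 82 in the ORF2p RIP over the mock IP, 1 and 190 to 208 in the ORF2p RIP over the ORF1p RIP, 1 to 2 and 195 to 206 in the ORF1p RIP over total RNA, 0 and 73 to 88 in the ORF2p RIP over total RNA, and 0 and 0 to 34 in the mock IP over total RNA. The count of 0 came without mock IP replicate 1 and that of 34 without total RNA replicate 1. Loci with 0 reads in a group are given as bounds.

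Replicate numbers are shared between groups. Same-numbered libraries deviated from their group means with correlations of -0.469 to 0.448 (median 0.106, 21 pairs), against -0.488 to 0.472 for other pairs (median -0.061). Such overlapping ranges cannot show whether the numbers pair the samples, and the main fit did not pair them. With the replicate block, 1 subfamily was called in the ORF1p RIP over total RNA, where HERV9-int was at 0.91, and 0 loci in the mock IP over total RNA.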
